A study of Mus musculus with 27 samples.

Results

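RNA from cells with a STAT5A knockdown was compared directly with RNA from cells with a STAT5B knockdown, without passing through a control group. The libraries were chosen by their titles alone: 3 were labelled as carrying a STAT5A hairpin and 3 a STAT5B hairpin, all stimulated with IL3, which makes 6 of the 27 libraries of the series. All 6 came from Ba/F3, a mouse cell line labelled pro-B that needs the cytokine IL3 to grow. Cells had been transduced with a lentivirus expressing the hairpin, kept in puromycin for at least 1 week, starved of IL3 for 6 h and restimulated for 30 min with 10 ng/mL IL3. The control for both was a hairpin without a target, carried by 5 libraries treated in the same way. Wild-type cells without any hairpin were sampled after deprivation alone (5 libraries) and after the same stimulation (5 libraries). A further 6 libraries with other hairpins were not compared here. They entered the choice of genes tested, the scaling of libraries and the estimate of the spread between replicates. Polyadenylated RNA was made into libraries with the TruSeq kit, and the STAT5A knockdown libraries held 11.7 to 22.6 M reads counted in genes, the STAT5B knockdown libraries 8.53 to 18.8 M.

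STAT5A and STAT5B are a pair of closely related transcription factors encoded by neighbouring genes. When IL3 binds its receptor, the kinase JAK2 phosphorylates them, they pair through their SH2 domains, enter the nucleus and bind short palindromes in DNA near genes such as Cish, Socs2, Pim1 and Bcl2l1. In cells that depend on IL3 they carry much of the signal for survival and growth, and the proteins overlap widely in the genes they bind. A direct comparison asks which transcripts depend on which of the pair was lowered.

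Several features limit the model. It is 1 cell line, selected after transduction with no clone named, and neither the hairpin sequences nor the number of hairpins per gene is given in the sources used here, so an effect of STAT5 and an effect of a hairpin on other transcripts cannot be told apart. Replicates are called biological in the labels, which do not say what separated them. The p-values therefore measure only the spread between libraries within groups, estimated over all 27 libraries of the series. In bulk RNA, fewer cells expressing a gene and less RNA per cell cannot be told apart. Among defining genes of the B lineage, Pax5 and Ebf1 had 0 counts in all 6 libraries, Igll1 had at most 1 count, Vpreb1 had 1 to 11 counts, and Cd79a, a subunit of the B cell receptor, was present at 36.1 to 58.5 counts per M counted reads (CPM).

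The pair of target genes share long stretches of sequence, which bears on how well reads of one can be told from reads of the other. Stat5a lies at chr11:100859351-100885169 on the plus strand and Stat5b at chr11:100780731-100850724 on the minus strand (GRCm38/mm10, GENCODE vM21). Their coding sequences, 2391 and 2358 bases long, hold an identical run of 324 bases at positions 571 to 894 of both, counted from the start codon. The edges of that run are read 5′ to 3′ along each gene from the GENCODE vM21 transcripts, with the shared bases in capitals and the bases beyond the run in lower case. The first edge lies at chr11:100874003-100874062 (plus) in Stat5a and chr11:100798662-100798721 (minus) in Stat5b. The last edge lies at chr11:100874944-100875003 (plus) and chr11:100797721-100797780 (minus).
Stat5a, first edge: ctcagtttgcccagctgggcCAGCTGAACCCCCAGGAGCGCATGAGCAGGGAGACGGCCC
Stat5b, first edge: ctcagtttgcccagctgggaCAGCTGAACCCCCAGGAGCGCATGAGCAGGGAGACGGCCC
Stat5a, last edge: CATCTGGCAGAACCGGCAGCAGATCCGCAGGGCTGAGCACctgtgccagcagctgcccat
Stat5b, last edge: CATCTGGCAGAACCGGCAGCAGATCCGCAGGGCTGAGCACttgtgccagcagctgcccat
Over all annotated transcripts, 608 of the 7407 distinct 50-base words of Stat5a (8.21%) also occur in Stat5b, which is 11% of the 5535 words of Stat5b. The read length is not given in the sources used here. How the authors' counting treated reads from these stretches was not tested.

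Each hairpin lowered its own target. In units of CPM scaled by TMM (trimmed mean of M values) factors, Stat5a stood at 26.7, 27.5 and 23.7 in the 3 STAT5A knockdown libraries and at 61.7, 89.8 and 75.0 in the 3 STAT5B knockdown libraries. All STAT5A knockdown libraries lay below the lowest of the 5 no-target libraries, which spanned 50.5 to 92.0, while the STAT5B knockdown libraries lay within that span. Stat5a was lower in the STAT5A than in the STAT5B knockdown by a log2 fold change of -1.54 (SE 0.195, 95% interval -1.94 to -1.14, adjusted p = 0.000222, edgeR quasi-likelihood test with Benjamini-Hochberg adjustment over 12073 genes). Against the no-target hairpin, the STAT5A knockdown held 35.9% of the mean level of Stat5a.

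Stat5b stood at 87.9, 89.6 and 87.5 CPM in the STAT5A knockdown and at 33.8, 29.3 and 36.0 CPM in the STAT5B knockdown. The groups did not overlap, and both lay below the no-target span of 95.3 to 133.8 CPM. Stat5b was higher in the STAT5A than in the STAT5B knockdown by a log2 fold change of 1.42 (SE 0.176, 95% interval 1.06 to 1.78, adjusted p = 0.000222). The STAT5B knockdown held 28.5% of the no-target mean of Stat5b, and the STAT5A knockdown held 76.3%. The second of these did not pass the test against the no-target hairpin (log2 fold change -0.39, adjusted p = 0.566). The matching value for Stat5a in the STAT5B knockdown was 0.07 (SE 0.170, adjusted p = 0.855).

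**Figure D1:**
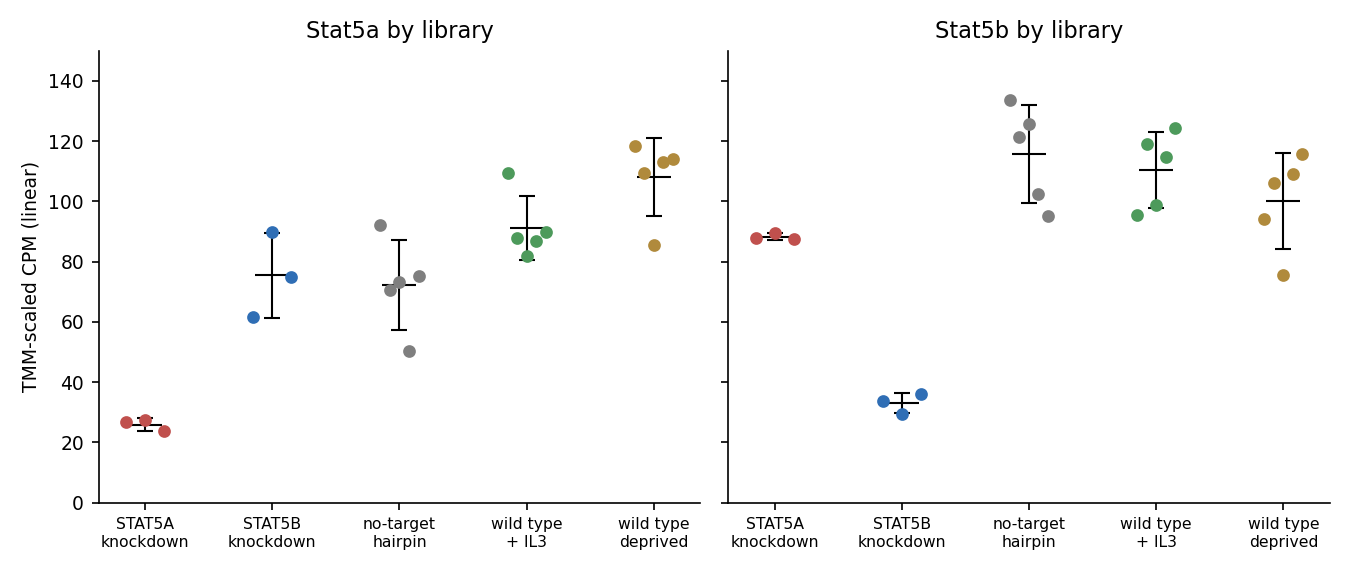
Levels of Stat5a and Stat5b in TMM-scaled CPM (linear axis from 0) for each library of 5 groups; points are libraries, and the bar and whiskers give the mean and SD. Stat5a is lowest in the STAT5A knockdown (23.7 to 27.5) and Stat5b in the STAT5B knockdown (29.3 to 36.0), with no overlap between the knockdowns in either gene.

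Because transcripts differ in length, the sum of the pair was taken per kb of annotated exon (7.13 kb for Stat5a, 5.54 kb for Stat5b). Summed STAT5 transcript was 19.6, 20.02 and 19.1 CPM per kb in the STAT5A knockdown and 14.7, 17.9 and 17.0 CPM per kb in the STAT5B knockdown. On this scale the STAT5A knockdown libraries were all higher, by a ratio of 1.18 between the means. The exact two-sided permutation test gave p = 0.1, the smallest that 20 splits of 3 against 3 allow. That order rests on the exon lengths used, and the annotation behind the counts is not given. Without division by length, the sums of CPM overlapped between the knockdowns, and STAT5B library 2 held the highest. No-target libraries held 25.6 to 37.1 CPM per kb, so both knockdowns lay below every control. Stat5a made up 17.4 to 19.3% of the summed level in the STAT5A knockdown, 58.7 to 70.4% in the STAT5B knockdown and 27.7 to 38.0% with the no-target hairpin. Stat5b was thus the more abundant transcript per kb in control cells, and the comparison set cells with mostly Stat5b against cells with mostly Stat5a.

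The likeness of libraries did not follow the hairpin. Across the 12073 genes tested, Pearson's r of log2 CPM ran from 0.955 to 0.991 between libraries of the same hairpin and from 0.951 to 0.990 between libraries of different hairpins (genes are not independent replicates, and these values are descriptions). STAT5A library 3 was most like STAT5B library 2 (r = 0.990), and these libraries shared a low number of multi-mapped reads, 0.177 and 0.184 per counted read against 0.251 to 0.290 in the other 4. STAT5B library 3, the shallowest at 8.53 M reads, stood apart from the other 5. Of 9567 genes considered, 82 were at least 2-fold above and 165 at least 2-fold below all other 5 libraries there. The same counts were 20 and 10 in STAT5A library 3 and at most 4 and 5 in the remaining libraries.

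**Figure D2:**
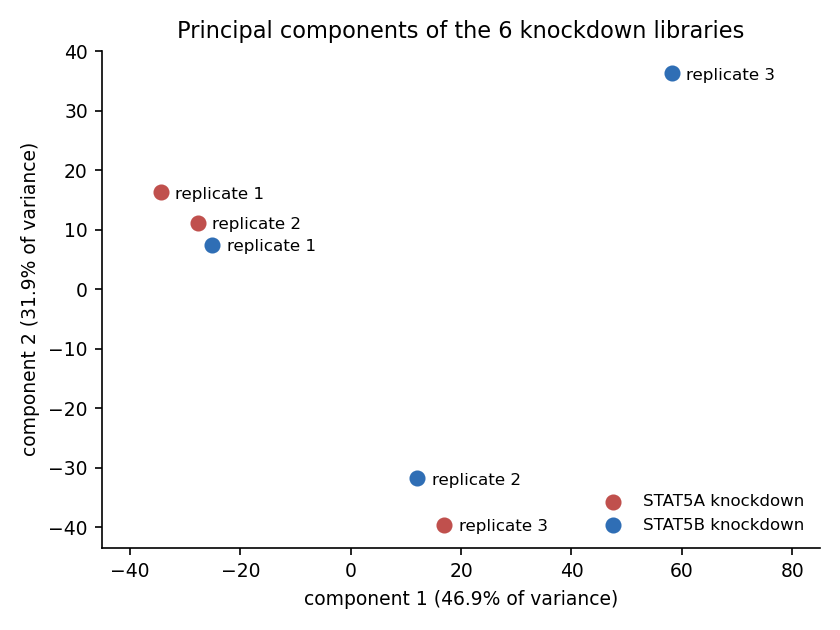
First and second principal components of log2 CPM over the 6 knockdown libraries; each point is a library, coloured by hairpin and numbered by replicate. Component 1 (46.9% of the variance) sets STAT5B library 3 at 58.2 apart from the rest, and component 2 (31.9%) sets STAT5A library 3 and STAT5B library 2 at -39.7 and -31.8 apart from the rest; neither separates the hairpins.

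Beyond the hairpin targets, 1 gene passed the test in the direct comparison. Vps26b encodes a subunit of the retromer, the complex that carries membrane proteins from endosomes back to the Golgi and the cell surface, and lies at chr9:27007771-27030065 on the minus strand. It stood at 120.3, 114.8 and 121.8 CPM in the STAT5A knockdown and at 86.4, 70.0 and 65.1 CPM in the STAT5B knockdown. The groups did not overlap: the no-target libraries (102.4 to 113.8 CPM) lay below the STAT5A and above the STAT5B knockdown libraries. Vps26b was higher in the STAT5A than in the STAT5B knockdown by a log2 fold change of 0.69 (SE 0.113, 95% interval 0.45 to 0.92, adjusted p = 0.0110). Against the no-target hairpin, Vps26b fell in the STAT5B knockdown (log2 fold change -0.58, adjusted p = 0.0150), and its value in the STAT5A knockdown was 0.11 (adjusted p = 0.690). The call was lost, at a log2 fold change of 0.61 to 0.72, without STAT5A library 1 (adjusted p = 0.107), STAT5A library 2 (0.0597), STAT5B library 2 (0.124) or STAT5B library 3 (0.208).

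In all, 3 of 12073 genes passed an adjusted p of 0.05 (0.0248%), 2 higher and 1 lower in the STAT5A knockdown. At an unadjusted p under 0.05 there were 409 genes (3.39%), 198 higher and 211 lower. The 3 libraries of one knockdown did not overlap the 3 of the other in 854 genes (7.07%). The median log2 fold change over all genes tested was -0.001, and the 95% interval of 8485 genes (70.3%) lay within a 2-fold difference in either direction. The number of genes passing was 9 without STAT5A library 3, 5 without STAT5B library 1, 2 without STAT5B library 3 and 0 when only these 6 libraries entered the fit, in which case 273 genes had an unadjusted p under 0.05. With DESeq2 it was 13.

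**Figure D3:**
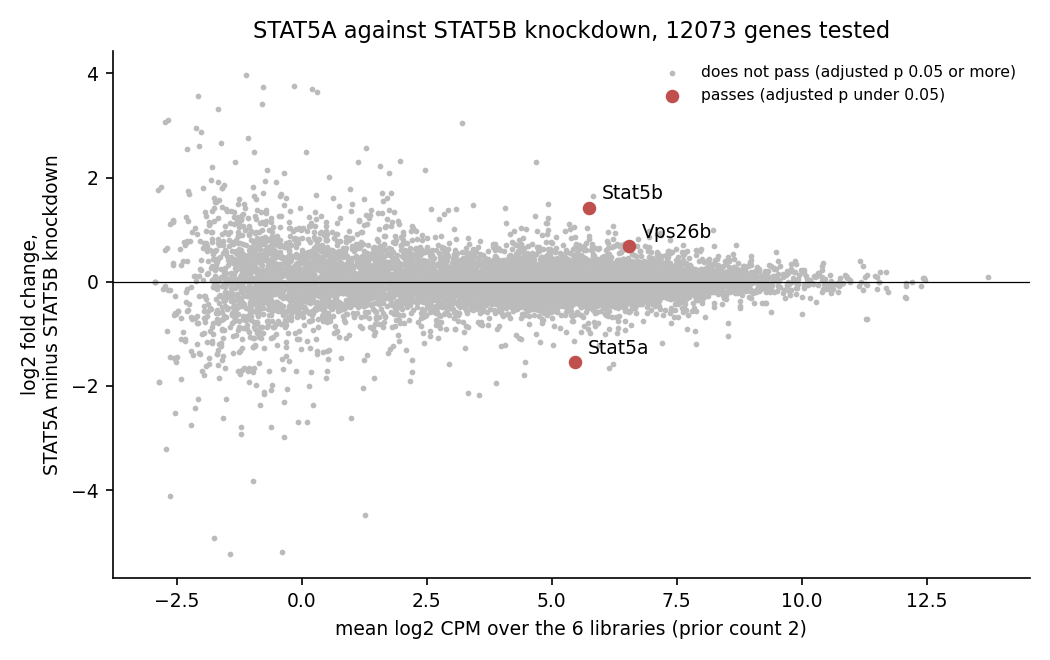
Log2 fold change of the STAT5A minus the STAT5B knockdown (y axis) against mean log2 CPM over the 6 libraries (x axis) for the 12073 genes tested; grey points did not pass the test and coloured points did. Stat5a at -1.54, Stat5b at 1.42 and Vps26b at 0.69 are the genes that passed, and they are coloured.

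The genes nearest to the threshold on the side of the STAT5A knockdown were of middling level and tightly grouped. Rbm28, a nucleolar protein of ribosome assembly at chr6:29123576-29165006, stood at 114.7, 111.9 and 108.1 CPM in the STAT5A knockdown and 70.1, 63.3 and 68.6 CPM in the STAT5B knockdown. Its log2 fold change of 0.73 (95% interval 0.44 to 1.02) did not pass (adjusted p = 0.0655). Rbm28 did pass with DESeq2 (adjusted p = 0.000676), with a term for library class, set by multi-mapped reads and reads outside genes (0.000486), with that term and without STAT5B library 3 (0.00549), and on dropping the 5 libraries in which reads outside genes were many (0.00102). Zdhhc3, a palmitoyltransferase of the Golgi at chr9:123066160-123113205, stood at 113.7, 111.0 and 120.7 CPM against 77.2, 65.3 and 75.0 CPM. Its log2 fold change of 0.67 (0.39 to 0.94) did not pass (adjusted p = 0.100), but it passed with DESeq2 (adjusted p = 0.000967) and with the class term (0.0178). Both had the STAT5B knockdown below and the STAT5A knockdown near the no-target level: against the no-target hairpin, Rbm28 fell by 0.89 (adjusted p = 0.00119) and Zdhhc3 by 0.72 (adjusted p = 0.0104) on the log2 scale in the STAT5B knockdown.

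Vps26a, the paralogue of Vps26b at chr10:62455235-62486805, had values in the same direction. It stood at 113.8, 95.8 and 111.6 CPM in the STAT5A knockdown and 61.1, 59.7 and 75.6 CPM in the STAT5B knockdown, with a log2 fold change of 0.71 (0.39 to 1.03) that did not pass with edgeR (adjusted p = 0.209) and passed with DESeq2 (0.00824). The paralogues share no 50-base word, and their longest identical coding run is 17 bases. Other genes of this side that did not pass with edgeR were Nudt4, a phosphatase of inositol pyrophosphates (0.64), Aplf, a factor of DNA end joining (0.69), Rin3, an exchange factor for Rab5 (0.87), and Abi2, a subunit of the actin-regulating WAVE complex (0.77). Their adjusted p-values were 0.209 to 0.337. With DESeq2, Nudt4 (adjusted p = 0.0111), Aplf (0.0111) and Rin3 (0.0490) passed and Abi2 did not.

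On the other side, with lower levels in the STAT5A knockdown, the smallest p after Stat5a (among genes with a mean of at least 5 CPM and no overlap) belonged to Rnf185, a ubiquitin ligase of the endoplasmic reticulum. It stood at 15.5, 15.9 and 24.7 CPM in the STAT5A knockdown and 26.5, 30.2 and 56.7 CPM in the STAT5B knockdown, and the no-target libraries held 22.5 to 25.9 CPM. Its log2 fold change of -1.01 (-1.47 to -0.55) did not pass (adjusted p = 0.209). Rnf185 passed with DESeq2 (adjusted p = 0.0111), without STAT5A library 3 (log2 fold change -1.26, adjusted p = 0.0395) and with the replicate number as a block (adjusted p = 0.00900), where the numbers were not found to pair the libraries. It passed in no other setting. Its highest level was that of STAT5B library 3, and its log2 fold change ranged from -1.405 to -0.577 over 16 settings. Among the next 8 genes under the same conditions were Kdelc2 (-0.98), Rcan1, an inhibitor of calcineurin (-0.69), Stk11ip (-0.47), Ccnyl1 (-0.70), Cdc42ep4, an effector of CDC42 (-1.27), Phospho1, a phosphatase (-1.58), and Zfp667 (-0.81), with adjusted p-values of 0.594 to 0.760. In Cdc42ep4 and Phospho1, STAT5B library 3 stood at 28.6 and 31.1 CPM while the other STAT5B libraries stood at 8.14 to 11.4 and 5.68 to 8.97 CPM.

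**Figure D4:**
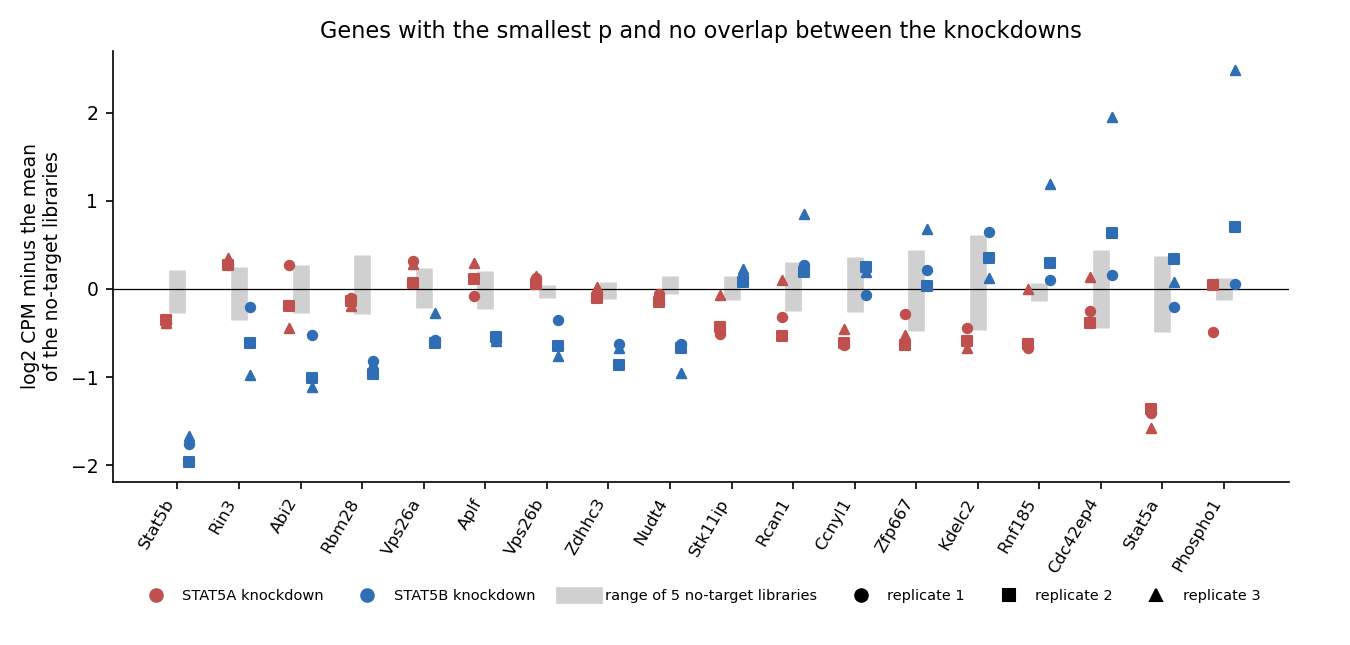
Log2 CPM minus the mean of the 5 no-target libraries for 18 of the genes with the smallest p-values whose groups do not overlap, chosen by that p; points are single libraries of the STAT5A and STAT5B knockdowns and grey bands span the no-target libraries. In most genes that are higher in the STAT5A knockdown, the STAT5A points lie in or near the grey band and the STAT5B points lie below it.

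Set beside the no-target hairpin, more genes passed in the STAT5B knockdown (41 of 12073, 0.34%: 25 higher and 16 lower) than in the STAT5A knockdown (8 of 12073, 0.0663%: 6 higher and 2 lower). Both counts rest on the same 5 control libraries, so they are not independent, and a gene that passed in one and not in the other is not thereby shown to differ between the knockdowns. Of the 46 genes that passed in either, 3 passed in the direct comparison, 33 had an unadjusted p under 0.05 there, and 20 had groups that did not overlap, beside 0.0248%, 3.39% and 7.07% of all genes tested. The 46 were chosen by contrasts that hold the same knockdown libraries, which favours a direct difference, so nothing is read from these counts. The 25 genes higher in the STAT5B knockdown had a median log2 fold change against the no-target hairpin of 1.65 there and 0.66 in the STAT5A knockdown. STAT5B library 3 was the most extreme of the 6 libraries in 15 of those 25. Leaving out STAT5B library 3 lowered the count of the STAT5B knockdown from 41 to 5, and leaving out STAT5B library 1 raised it to 171. It was 13 without STAT5B library 2, 8 to 10 without no-target library 1, 3 or 4, and 23 without no-target library 5. For the STAT5A knockdown, the count was 13 without no-target library 2 and 2 to 4 without no-target library 1, 3, 4 or 5.

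The genes that passed against the no-target hairpin in both knockdowns were Anxa3, B4galnt4 and Gadd45a (Anxa3 and Gadd45a are named after their values were seen). None of these had an unadjusted p under 0.05 in the direct comparison. Gadd45a, a stress-inducible regulator of growth arrest, stood at 45.01, 41.9 and 124.4 CPM in the STAT5A knockdown and 49.8, 66.6 and 48.7 CPM in the STAT5B knockdown, above the no-target span of 12.7 to 26.7 CPM in all 6 libraries. Its direct log2 fold change was 0.36 (-0.34 to 1.05). B4galnt4, a glycosyltransferase, stood at 4.21, 5.12 and 2.98 CPM against 4.75, 4.68 and 3.00 CPM, below the no-target span of 8.43 to 14.6 CPM in all 6 libraries. Its direct log2 fold change was -0.04 (-0.50 to 0.42). Anxa3, a calcium-dependent membrane-binding annexin, stood at 2.72, 2.77 and 33.4 CPM against 5.39, 28.3 and 12.0 CPM, with a direct log2 fold change of -0.23 (-2.03 to 1.58), so a several-fold difference either way was not detectable there.

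Cytokine-response genes were then read as a list of 20, of which 19 could be tested and Bcl6 could not. The list was drawn up with earlier results of these data known, so it is not independent of them. Its members B4galnt4, Bhlhe40 and Iqgap2 had also passed in a knockdown against the no-target hairpin, a contrast that holds the same knockdown libraries. None of the 19 passed in the direct comparison with edgeR or with DESeq2, although Iqgap2 passed when edgeR was given the class term. In 3 of the 19, the unadjusted edgeR p was under 0.05 (Socs1, Bhlhe40 and Iqgap2), beside 3.39% of all genes tested. The median log2 fold change of the 19 was 0.04, with 8 negative and 11 positive values, beside -0.001 over all genes tested. The interval lay within a 2-fold difference in 7 of them, beside 70.3% of all genes tested. In 13 genes all 6 libraries lay below the no-target mean, and in Cish, Pim1 and B4galnt4 all 6 lay below every no-target library. The share of all genes tested that lay below the controls in these ways was not computed, so nothing is read from those counts.

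Among the feedback inhibitors, Cish, which blocks STAT5 docking on cytokine receptors (chr9:107296026-107302784), stood at 301.8, 333.5 and 220.2 CPM in the STAT5A knockdown and 324.9, 234.9 and 274.7 CPM in the STAT5B knockdown. The groups overlapped, and the no-target libraries held 337.8 to 685.8 CPM. The direct log2 fold change of Cish was 0.04 (95% interval -0.63 to 0.70). Socs2 had 46.9 to 54.9 CPM against 34.8 to 62.2 CPM and a log2 fold change of 0.04 (-0.37 to 0.45). Socs1 and Socs3, inhibitors of JAK kinases, were set by a single library. Socs1 stood at 63.1, 85.5 and 57.1 CPM in the STAT5A knockdown and at 47.9, 53.7 and 304.7 CPM in the STAT5B knockdown. Its log2 fold change was -0.98 (-1.95 to -0.01) with STAT5B library 3 and 0.43 without it. Socs3 stood at 46.0, 49.97 and 41.9 CPM against 45.4, 58.4 and 215.6 CPM, with a log2 fold change of -1.21 (-2.56 to 0.14).

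One match to the STAT5-type palindrome TTCNNNGAA, which reads the same on both strands, was found in the 250 bases before the RefSeq start of Socs3. It begins 154 bases before that start, at chr11:117969502-117969530 on the minus strand with 10 flanking bases on each side (RefSeq, GRCm38.p6). GENCODE vM21 places Socs3 at chr11:117966079-117970047 on the minus strand, so the match lies within the gene in that annotation. The match is in capitals.
Socs3, upstream match: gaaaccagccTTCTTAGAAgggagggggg
Of all 32851 such windows, 2306 (7.02%) hold a match. Counted by gene, with a match in any window of the gene, it was 660 of the 8999 tested genes with a window (7.33%). Of the 20 cytokine-response genes, 12 had a window and 2 of these held a match (Socs3 and Bcl6). Of 18 genes nearest to the threshold in the direct comparison, Vps26b among them, 14 had a window and 0 held a match. A match says only that these letters occur in the window.

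Among growth and survival genes, Pim1, a kinase that supports survival, stood at 326.0, 383.8 and 209.5 CPM in the STAT5A knockdown and 278.9, 200.8 and 201.0 CPM in the STAT5B knockdown. All 6 lay below the no-target span of 426.4 to 654.6 CPM, and the direct log2 fold change was 0.43 (-0.24 to 1.11). Myc, a transcription factor that drives growth, stood at 801.0, 845.1 and 756.8 CPM against 880.7, 916.9 and 1088 CPM. The groups of Myc did not overlap, but the log2 fold change of -0.26 (-0.87 to 0.34) did not pass. Mcl1, which blocks apoptosis, had the tightest bound of the list at 0.06 (-0.21 to 0.34). The values were 0.36 (-0.44 to 1.15) for Bcl2l1, the gene of BCL-XL, 0.14 (-0.55 to 0.84) for the cyclin gene Ccnd2 and -0.14 (-0.79 to 0.51) for the helix-loop-helix inhibitor Id1.

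Bhlhe40 and Iqgap2 were the list members on the side of the STAT5A knockdown with an unadjusted p under 0.05. Iqgap2, a scaffold protein of the cytoskeleton, stood at 198.0, 185.8 and 143.0 CPM in the STAT5A knockdown and 106.2, 101.4 and 61.8 CPM in the STAT5B knockdown. The groups did not overlap, and the log2 fold change of 0.97 (0.08 to 1.85, unadjusted p = 0.0339) did not pass after adjustment. With the class term it was 0.96 and passed (adjusted p = 0.0372). Bhlhe40, a transcriptional repressor, stood at 156.7, 157.3 and 43.4 CPM against 89.2, 33.3 and 64.7 CPM, which overlap (log2 fold change 0.93, 0.003 to 1.86). Egr2, an early transcription factor, leaned the other way at 54.5, 54.8 and 84.1 CPM against 122.4, 137.1 and 110.7 CPM (-0.94, -2.004 to 0.13), without overlap and without passing. The cytokine gene Osm (224.6, 236.9 and 435.2 CPM against 266.7, 329.9 and 1257 CPM) and the activation marker Cd69 (123.8, 104.4 and 177.8 CPM against 122.9, 121.9 and 8.28 CPM) both had STAT5B library 3 as the outermost of the 6.

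**Figure D5:**
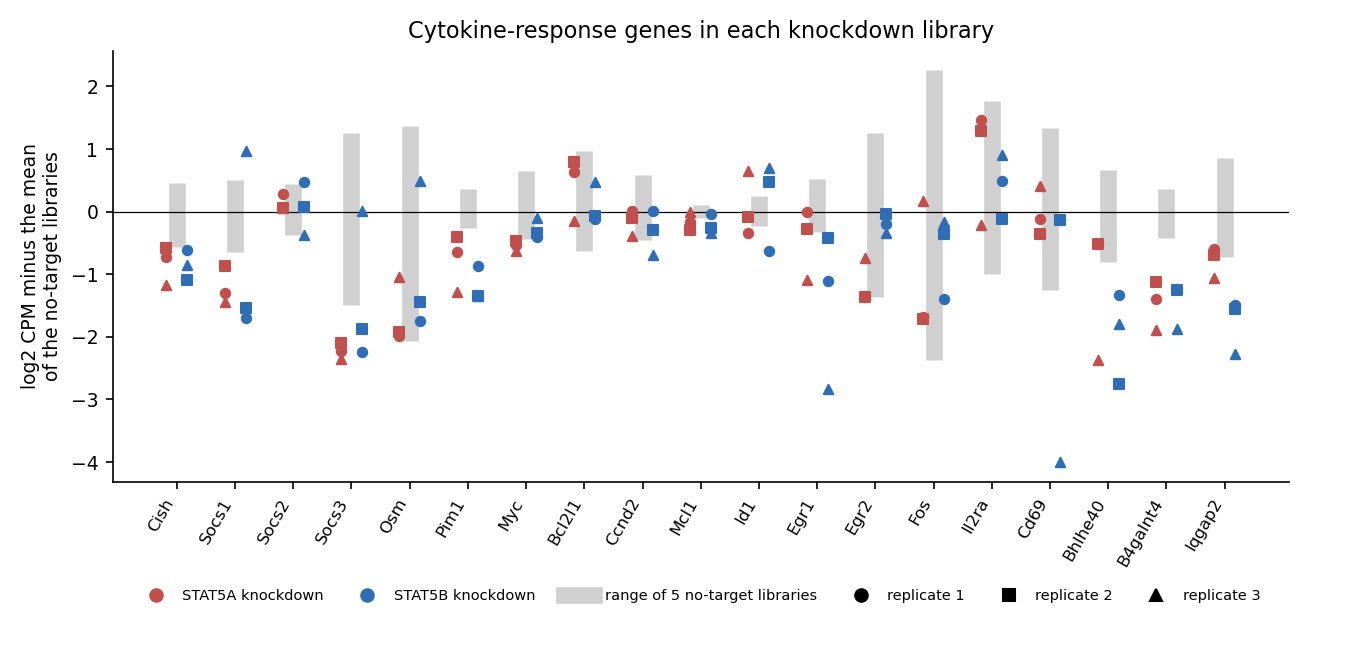
Log2 CPM minus the mean of the 5 no-target libraries for the tested cytokine-response genes; points are single libraries of the STAT5A and STAT5B knockdowns, with a symbol per replicate, and grey bands span the no-target libraries. The library medians are -0.54, -0.46 and -0.75 in the STAT5A and -0.63, -0.35 and -0.35 in the STAT5B knockdown, and the colours intermingle in most genes.

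A wider set came from wild-type cells, whose 10 libraries are in neither knockdown. There, IL3 changed 461 of 12073 genes (3.82%), and 217 genes that rose at least 2-fold formed the IL3-induced set. In the direct comparison of the knockdowns, 0 of the 217 passed with edgeR or DESeq2 and, with edgeR, 7 had an unadjusted p under 0.05, 4 higher and 3 lower in the STAT5A knockdown (3.23%, beside 3.39% of all genes tested). Their median log2 fold change was 0.02, with 105 negative and 112 positive values. An interval within a 2-fold difference was seen in 98 of them, beside 70.3% of all genes tested. Against the no-target hairpin, the median was -0.19 in the STAT5A and -0.19 in the STAT5B knockdown, values that share their control libraries. By library, the median stood at -0.06, -0.11 and -0.24 in the STAT5A knockdown and at -0.10, -0.24 and -0.13 in the STAT5B knockdown, relative to the no-target mean. The 5 no-target libraries themselves spanned -0.26 to 0.18, so all 6 knockdown medians lay within the control span. The 41 genes that IL3 lowered at least 2-fold had a direct median of 0.05, with 0 passing and 2 at an unadjusted p under 0.05 (4.88%).

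Lists of the signalling pathway followed the same course. None of the lists described from here on held a gene that passed in the direct comparison other than Stat5a and Stat5b in the STAT family. In that family, Stat6, the mediator of IL4 signals, had a log2 fold change of 0.17 (-0.12 to 0.47). The 21 tested genes of a list of known STAT5 targets had a median of 0.14 (7 negative), with Ccnd3, a cyclin of the G1 phase, at 283.5, 343.3 and 266.6 CPM against 193.6, 238.7 and 150.1 CPM (0.62, 0.11 to 1.13, unadjusted p = 0.0202). The 12 SOCS and PIAS inhibitors had a median of -0.02, and the 18 genes of the IL3 receptor and JAK list a median of 0.06. In the receptor list, the common beta chain Csf2rb stood at 3785, 3781 and 4118 CPM against 4945, 4344 and 5136 CPM (-0.30, -1.12 to 0.52). The phosphatase gene Ptpn6 stood at 208.0, 223.7 and 310.2 CPM against 142.8, 231.2 and 137.0 CPM (0.54, 0.09 to 0.99, unadjusted p = 0.0211).

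Immediate early genes, which answer a stimulus within minutes, had a median of -0.25 over 34 tested, with 23 negative. The median was -0.07 without STAT5B library 3, -0.15 without STAT5A library 1 and -0.14 without STAT5A library 2. Jun, a subunit of AP-1, stood at 31.8, 33.4 and 58.1 CPM in the STAT5A knockdown and 89.9, 148.6 and 151.5 CPM in the STAT5B knockdown. The groups did not overlap, but the 5 no-target libraries alone spanned 16.8 to 174.8 CPM. The log2 fold change of Jun was -1.66 (-2.81 to -0.51, unadjusted p = 0.00643, adjusted p = 0.946). Fosb, its partner, stood at 12.7, 9.73 and 9.21 CPM against 21.4, 17.8 and 35.1 CPM (-1.23, -2.21 to -0.24, unadjusted p = 0.0172). Fos itself had a log2 fold change of -0.23 with an interval from -2.28 to 1.83, which bounds it poorly.

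Of the 11 BCL2 family genes, 8 had positive values (median 0.11), and without STAT5A library 3 the median was -0.01 with 6 negative. An unadjusted p under 0.05 was seen in 18.2% of them, 1 gene on each side, beside 3.39% of all genes tested. Bmf, which promotes apoptosis, stood at 1.24, 1.59 and 3.35 CPM against 4.57, 6.77 and 4.92 CPM (-1.38, -2.31 to -0.44, unadjusted p = 0.00578). Bid, which does so too, stood at 79.5, 80.7 and 53.7 CPM against 43.6, 53.6 and 37.9 CPM (0.66, 0.12 to 1.201, unadjusted p = 0.0190). The pair of pro-apoptotic genes thus leaned to opposite sides, and neither passed after adjustment (adjusted p = 0.895 and 1). The p53 targets had a median of -0.04 over 23 tested, among them the death receptor gene Fas at 46.1, 37.9 and 56.1 CPM against 33.0, 29.3 and 8.04 CPM (0.98, 0.22 to 1.75, unadjusted p = 0.0138). STAT5B library 3 held the lowest level of Fas, whose log2 fold change ranged from 0.348 to 1.302 over 16 settings. The 15 genes that FOXO factors raise on cytokine withdrawal had a median of -0.21, with 12 negative and 0 at an unadjusted p under 0.05. Without STAT5B library 1, their median was 0.06 with 6 negative.

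Medians of the remaining regulatory lists were -0.06 for 14 cytokines, 0.25 for 14 cytokine receptors, 0.03 for 29 interferon-response genes, 0.10 for 14 co-repressor genes and -0.14 for 27 lineage factors. None of these lists held more than 1 gene at an unadjusted p under 0.05. Without STAT5B library 3 the medians were 0.30 for cytokines, -0.04 for co-repressors and 0.001 for lineage factors, and without STAT5A library 3 they were 0.13 for cytokine receptors and 0.21 for interferon-response genes. The lineage factors held Lyl1, Runx3 and Foxp1 among those with the smallest p, at log2 fold changes of 0.68 (-0.15 to 1.50), 0.49 (-0.03 to 1.00) and -0.50 (-1.02 to 0.02).

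Lists of growth and housekeeping genes lay close to 0. The 81 ribosomal protein genes had a median of -0.01, 73 genes of oxidative phosphorylation -0.02, 42 of S phase 0.02 and 36 of mitosis 0.06. Intervals lay within a 2-fold difference in 58, 67, 40 and 35 of them, beside 70.3% of all genes tested. Mcm7, a subunit of the replicative helicase, stood at 119.9, 123.4 and 354.9 CPM in the STAT5A knockdown and 271.7, 368.6 and 240.6 CPM in the STAT5B knockdown (-0.56, -1.16 to 0.05). STAT5A library 3 stood apart from its group there, and without it the log2 fold change was -1.27 (adjusted p = 0.0268). Kif23, a kinesin of cell division, stood at 174.7, 184.8 and 181.3 CPM against 167.8, 142.0 and 75.9 CPM (0.49, 0.09 to 0.88, unadjusted p = 0.0184). STAT5B library 3 held the lowest level of Kif23, whose log2 fold change ranged from 0.097 to 0.724 over 16 settings. The medians were -0.10 for 37 genes of ribosome biogenesis (Rbm28 among them, which passed with DESeq2), 0.06 for 18 chaperones of the endoplasmic reticulum, -0.06 for 19 ATF4 and stress genes and 0.14 for 30 genes of glycolysis and hypoxia (24 positive, 0 at an unadjusted p under 0.05). Ribosome biogenesis had a median of 0.03 without STAT5B library 3, and without STAT5A library 3 the medians were -0.15 for chaperones, -0.27 for ATF4 and stress genes and 0.04 for glycolysis and hypoxia.

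Lists of cholesterol synthesis and the lysosome leaned to lower values in the STAT5A knockdown, with medians of -0.20 (20 of 25 negative) and -0.23 (23 of 31 negative). Relative to the no-target mean, STAT5B library 3 had a median of 0.97 over the cholesterol list and 1.06 over the lysosome list. Dhcr7, an enzyme of the last steps of cholesterol synthesis, stood at 32.7, 35.0 and 37.5 CPM against 36.3, 38.5 and 102.8 CPM. Dpp7, a lysosomal peptidase, stood at 29.5, 30.3 and 36.0 CPM against 32.2, 49.6 and 129.5 CPM (-1.14, -1.83 to -0.44, adjusted p = 0.692). The amino acid transporter genes Slc7a5 (175.2, 176.6 and 159.7 CPM against 141.6, 182.3 and 630.7 CPM) and Slc3a2 (206.6, 219.0 and 247.1 CPM against 207.4, 268.9 and 605.8 CPM) had the same shape. Without STAT5B library 3, the medians were 0.19 for cholesterol synthesis and -0.05 for the lysosome. With the class term as well, they were 0.22 for cholesterol synthesis and -0.02 for the lysosome.

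Markers of other cell types varied widely within each knockdown. The 30 myeloid markers in the files summed to 983.9 to 3428 CPM in the STAT5A knockdown, 1257 to 2206 CPM in the STAT5B knockdown and 472.2 to 1130 CPM with the no-target hairpin. The 23 tested had a direct median of -0.10, with 12 negative and 11 positive, beside medians against the no-target hairpin of 1.32 in the STAT5A and 1.38 in the STAT5B knockdown. The direct median was -1.11 without STAT5A library 3 and 0.34 without STAT5B library 2. Lyz2, the lysozyme of myeloid cells, stood at 7.29, 6.96 and 7.65 CPM against 13.8, 15.4 and 9.96 CPM (-0.84, -1.47 to -0.21, unadjusted p = 0.0111), and Mpo, the peroxidase of granules, at 23.1, 23.1 and 155.0 CPM against 28.4, 205.7 and 368.8 CPM (-1.58, -3.61 to 0.46). Clec4e, a receptor of macrophages, stood on the other side at 294.8, 250.5 and 445.6 CPM against 303.3, 206.7 and 133.9 CPM (0.62, 0.09 to 1.15, unadjusted p = 0.0235). Their part in the other differences was not tested.

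The 9 eosinophil markers summed to 918.0 to 3759 CPM in the STAT5A knockdown, 995.9 to 1725 CPM in the STAT5B knockdown and 106.9 to 1108 CPM in no-target libraries. The 7 tested had a direct median of 0.42 with 5 positive, and of -0.14 without STAT5A library 3. Among them, Ear6, an eosinophil ribonuclease, stood at 34.4, 37.8 and 124.6 CPM against 12.5, 21.0 and 6.36 CPM (2.29, 0.32 to 4.26, unadjusted p = 0.0246). Epx, the eosinophil peroxidase, stood at 246.1, 254.8 and 1247 CPM against 233.7, 659.9 and 316.7 CPM, with an interval from -1.38 to 2.44. The 14 mast cell and basophil markers summed to 769.0 to 807.1 CPM, 611.7 to 1960 CPM and 546.8 to 1341 CPM in the same order of groups, and 8 of the 10 tested had a negative value (median -0.53, and -0.80 to -0.20 on leaving out 1 library). Mcpt8, a basophil protease, stood at 2.43, 3.19 and 10.3 CPM against 15.8, 33.9 and 20.8 CPM (-2.13, -4.33 to 0.07).

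The 23 B-lineage markers summed to 335.7 to 375.9 CPM in the STAT5A knockdown, 300.8 to 367.5 CPM in the STAT5B knockdown and 277.8 to 379.0 CPM in no-target libraries, and the 7 tested had a median of 0.06. The 18 erythroid and megakaryocyte markers summed to 1608 to 1764 CPM, 1338 to 1655 CPM and 1483 to 1942 CPM. The 10 tested had a median of 0.04, with 5 negative and 5 positive. Itga2b, an integrin of megakaryocytes, stood at 452.4, 562.5 and 313.6 CPM against 256.9, 283.9 and 122.6 CPM (1.00, 0.22 to 1.78, unadjusted p = 0.0137). Gfi1b, a transcriptional repressor of both lineages, did not overlap either and leaned the other way, at 25.8, 27.3 and 30.2 CPM against 33.4, 47.5 and 41.9 CPM (-0.56, -1.42 to 0.31). The 16 T and NK cell markers summed to 15.1 to 166.6 CPM, 14.2 to 211.9 CPM and 9.63 to 40.9 CPM. Their spread followed Gzmb, granzyme B, at 148.8, 143.3 and 3.12 CPM in the STAT5A knockdown and 27.4, 3.47 and 194.0 CPM in the STAT5B knockdown, where each group held both high and low libraries. The 9 stromal markers summed to 119.9 to 254.2 CPM, 51.4 to 240.4 CPM and 141.7 to 314.3 CPM, nearly all of it from Acta2. Only Acta2 of that list was tested (0.13, -0.88 to 1.14).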

How the data were processed

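Polyadenylated RNA of 27 libraries in 7 groups was sequenced, and the 6 libraries compared here are the IL3-stimulated STAT5A and STAT5B knockdowns. The authors deposited whole-number read counts per gene symbol, with 1 file per library. Per the submitters' processing notes, the genome build was mm10 and the tools were HTSeq 0.5.4p5, TopHat2 2.0.10, Trimmomatic 0.30 and DESeq2 1.2. Their roles and order, the annotation and the strand setting are not given in the sources used here, so overlapping and antisense genes may share reads.

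The 5 summary lines of each file entered neither library sizes nor tests. Reads outside genes were 8.70 to 12.0% and ambiguous reads 1.20 to 1.36% in the 6 libraries. No 2 replicates were copies (chi-square per degree of freedom from 10.4).

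All 27 libraries entered 1 edgeR quasi-likelihood fit (R 4.3.3, edgeR 4.0.16, limma 3.58.1) with a mean per group, TMM factors, filterByExpr (12073 of 24000 symbols) and the robust option, which left 20 residual degrees of freedom. A gene passed when its p, adjusted by Benjamini-Hochberg across the whole table, was under 0.05, whatever its fold change. The median half-width of the 95% interval in the direct comparison was 0.56 on the log2 scale. Levels are TMM-scaled CPM; log2 CPM used a prior count of 2. Intervals of single genes are 95% intervals of the log2 fold change. Gene lists were described by counts and medians and given no test of their own. The single permutation test was exact and two-sided.

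The compared groups, the gene lists and the tests were chosen with earlier results of these data known. The text names both targets, 20 cytokine-response genes, genes passing in the direct comparison filled up to 10 per direction by the smallest p (mean CPM of at least 5, no overlap, no predicted models, small RNAs or pseudogenes), and up to 4 genes per list with the smallest p. Any other gene was named after its values were seen. Some genes within this rule are not reported here; counts over all genes and lists include them. A list of genes of the mitochondrial genome matched 0 symbols. Positions were taken from GENCODE vM21 (GRCm38) for 185 of 188 genes. Upstream windows came from RefSeq (GRCm38.p6).

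Alternatives were RLE factors, no filter on low counts, a fit restricted to both groups of a comparison, DESeq2 1.42.0, a threshold of 0.01, a replicate block, leaving out each library, leaving out libraries with many reads outside genes or few multi-mapped reads, and a stricter IL3-induced set. A term for library class (few multi-mapped reads, many reads outside genes, or neither), that term without STAT5B library 3, and a comparison of only STAT5A libraries 1 and 2 with STAT5B library 1 were chosen after seeing the data. The scripts were tested on simulated data before use.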

Additional observations from a re-analysis of the deposited data

Results flagged for a closer look

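A difference between the knockdowns that the test itself found was seen for 3 genes, as log2 fold changes of the STAT5A minus the STAT5B knockdown in edgeR's quasi-likelihood test: Stat5a at -1.54, Stat5b at 1.42 and Vps26b at 0.69. The first 2 are the hairpin targets.

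Among the 5 no-target libraries, a single library lay far from the others, by Dixon's critical value, in 2 of 39 genes examined. Chance alone gives this in about 1 of 20 genes. The knockdown groups were not examined in this way. No-target library 1 had Vps26b at 102.4 CPM while the nearest of the other 4 stood at 110.5 CPM, and it still lay above all STAT5B knockdown libraries. No-target library 3 had Il2ra, the alpha chain of the IL2 receptor, at 0.760 CPM while the next stood at 0.170 CPM, a level of a few reads.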

How the results depend on the processing

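In the direct comparison, 3 genes passed with RLE factors as well, 2 without the filter on low counts, 2 at a threshold of 0.01, 13 with DESeq2, 6 with a term for library class and 3 with that term and without STAT5B library 3. Leaving out 1 library gave 2 to 9 genes. No gene passed when only the 2 groups compared were fitted (0, with 273 at an unadjusted p under 0.05), without the 4 libraries with few multi-mapped reads (0, with 604) or between STAT5A libraries 1 and 2 and STAT5B library 1 (0, with 181), where DESeq2 was not run. These fits use fewer libraries. Stat5a was then -1.54, -1.34 and -1.19 (adjusted p = 0.163, 0.127 and 0.727) and Stat5b 1.42, 1.35 and 1.39 (adjusted p = 0.101, 0.127 and 0.445). Leaving out 1 library gave -1.67 to -1.39 for Stat5a and 1.34 to 1.49 for Stat5b. Vps26b ranged from 0.44 to 0.82 over 16 settings, with adjusted p-values from 6.12e-08 to 1; it failed without the filter (adjusted p = 0.304) and in the fit of only the groups compared (0.999).

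Against the no-target hairpin, the count of the STAT5A knockdown (8) was 4 without the filter, 32 with DESeq2, 0 in the fit of only the groups compared, 3 when the 5 libraries with many reads outside genes were dropped, 3 with the class term, 5 with that term and without STAT5B library 3, 3 at 0.01, and 2 to 13 on leaving out 1 library. The count of the STAT5B knockdown (41) was, in the same order, 18, 163, 1, 11, 17, 11 and 4, then 17 without the libraries with few multi-mapped reads, 3 with STAT5B library 1 alone (whose spread is then assumed to be that of the other groups, so that this count is not comparable with 41), and 5 to 171 on leaving out 1 library. The cause of these moves was not tested.

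Equal replicate numbers did not pair the libraries: deviations of same-numbered STAT5A and STAT5B libraries correlated at 0.515, -0.258 and 0.088. With the replicate block, 4 genes passed in the direct comparison (Rnf185 added), 2 in the STAT5A and 8 in the STAT5B knockdown against the no-target hairpin.

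The median of the IL3-induced set ranged from -0.02 to 0.03 on leaving out 1 library and was -0.091 for the 82 genes that IL3 raised at least 4-fold. Of 1581 values for 99 named genes under the alternatives, 1538 stayed on the same side of the threshold, although 63 of these, in genes whose interval held 0, changed sign. Of the others, 16 changed sign, 9 lost and 18 gained a pass. Leaving out 1 library gave -1.377 to 0.431 for Socs1, -5.04 to 0.137 for Lgals3, -1.246 to 0.074 for Slc7a5 and -6.794 to 0.423 for Mlph. The positive ends are those without STAT5B library 3. With the class term as well, it changed for Socs1 (0.462), Lgals3 (0.191), Slc7a5 (0.057) and Lss (0.044). Between STAT5A libraries 1 and 2 and STAT5B library 1, it changed for Socs1 (0.632), Slc7a5 (0.311), Mlph (0.940), Lss (0.048), Slc3a2 (0.036), Elf3 (0.107), Uap1l1 (0.063) and Clec4e (-0.155).

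With 3 libraries per knockdown, the median 95% interval reached 0.56 on either side, before any adjustment for the number of genes. Smaller differences were not detectable for most genes, and larger ones also failed to pass in Rnf185, Kdelc2 and Jun. STAT5B library 3 has the fewest reads of the 6.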

Other observations

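STAT5B library 3 held levels of single genes that no other of the 6 libraries approached (genes named after their values were seen). F13a1, a coagulation factor of myeloid cells and platelets, stood at 4.32 CPM there and at 246.2 to 828.5 CPM in the other 5. Axl, a receptor kinase, stood at 2.88 CPM there and at 51.6 to 82.8 CPM elsewhere. Plekhh2 stood at 2.16 CPM there and at 61.8 to 118.1 CPM elsewhere. In the other direction, Lgals3, the gene of galectin-3, stood at 78.2 CPM there and at 0.652 to 1.84 CPM elsewhere. Mlph, which links melanosomes to myosin, stood at 34.7 CPM there and at 0.0472 to 0.711 CPM elsewhere. Syngr1, a synaptic vesicle protein, stood at 81.5 CPM there and at 7.40 to 18.1 CPM elsewhere. Stat5a at 75.0 CPM and Stat5b at 36.0 CPM in that library lay with the other STAT5B knockdown libraries, matching its label.

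Other than Stat5b, 15 genes passed as lower in the STAT5B than in the no-target libraries, and in 14 of them the STAT5A knockdown was nearer to the no-target level (B4galnt4 was the exception). The 15 had a median log2 fold change of -0.87 in the STAT5B and -0.18 in the STAT5A knockdown against the no-target hairpin, and 0.69 between the knockdowns; STAT5B library 3 was the outermost of the 6 in 8 of them. They include Lbr, the lamin B receptor, at 259.7, 227.9 and 264.1 CPM in the STAT5A knockdown and 191.9, 142.7 and 168.7 CPM in the STAT5B knockdown. Rps6kb1, the kinase that phosphorylates ribosomal protein S6, stood at 73.5, 57.1 and 56.5 CPM against 47.6, 36.5 and 38.5 CPM. Bmi1, a Polycomb protein, stood at 70.6, 61.4 and 68.2 CPM against 40.4, 46.6 and 32.3 CPM. The groups did not overlap in these genes, and none passed in the direct comparison (adjusted p = 0.783, 0.692 and 0.794). These genes were chosen by the contrast with the no-target hairpin, which holds the same STAT5B libraries. That choice favours a STAT5A level nearer to the control, so the count of 14, the medians and the lack of overlap are descriptions.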
